A study of Homo sapiens with 2 samples.

Results

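The laminins, nidogens and glycoproteins of the extracellular matrix are described here as 34 genes fixed by name, out of 19775 genes with a probe set naming them alone. A gene was taken from every probe set whose annotation gives its symbol and no other, with the older names CYR61 for CCN1 and CTGF for CCN2. Of the 34, 33 had such a probe set, 88 probe sets in all, and LAMA3, the alpha chain of epithelial laminin, was not analysed here. The 2 samples were 786-O, a human clear-cell kidney cancer line with a mutated VHL gene, and 786-VHL, a line derived from it that holds a working VHL gene. Each was measured as total RNA on 1 biotin-labelled Affymetrix array, with no replicate, and the labels name no treatment. How VHL was introduced, and whether 786-VHL is a single clone, were not given in the sources used here.

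Laminins are cross-shaped trimers of an alpha, a beta and a gamma chain that polymerise into the sheet of a basement membrane. Nidogens, perlecan (HSPG2) and agrin (AGRN) tie that sheet to collagen IV and to the cell surface, and in the kidney such membranes underlie every tubule and form the glomerular filter. Fibronectin, the fibrillins and fibulins, and small proteoglycans build the interstitial matrix, and matricellular proteins such as the CCN family act on cells more than they bear load. VHL protein is known to bind fibronectin, and cells without working VHL are known to assemble fibronectin poorly into matrix. The study's stated question was which transcripts depend on working VHL, and with 1 array per line such dependence cannot be told apart from other differences between the lines or arrays.

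Values are intensities in arbitrary units, 1 per probe set and array, with a median over 54613 probe sets of 21.97 in 786-O and 22.58 in 786-VHL. Differences are log2(786-VHL + 16) minus log2(786-O + 16), so positive values are higher in 786-VHL, and folds on that scale understate the differences of dim genes. The probe set with the highest mean log2 value represents a gene, and a gene is called measured where that probe set exceeds a floor of 22.3, the pooled median of all values, on at least 1 array. The number of arrays allowed no test, standard error or p-value, and genes are described by size, at least 2-fold or at least 1.5-fold. The SD between probe sets of a gene, 0.328 log2 units over 6436 genes and 0.271 over the 13 members with several probe sets above the floor, was the only measure of error and does not cover cultures or arrays. VHL itself read 28.85 in 786-O and 15.96, under the floor, in 786-VHL on its brighter probe set. That was 1.40-fold lower, or at least 1.17-fold with 786-VHL set to the floor, and so opposite to the direction of an added VHL gene. Its dimmer probe set was under the floor in both lines, at 6.32 and 7.96. Such weak readings, on probes that may not cover the added copy, gave no support to the labels. The names 786-O and 786-VHL stand for the arrays so labelled, and every direction rests on those labels. All 9 analysed markers of renal tubule and renal carcinoma cells were measured, 5 higher and 4 lower in 786-VHL. Among them, and chosen after their values were seen, PAX8 read 1521 and 1068 and KRT19 read 472 and 930.1. The PAX8 probe sets gave differences from -1.08 to -0.29. In such bulk RNA, fewer cells of a type and less RNA per cell cannot be told apart.

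Of the 34 members, 26 were measured, 7 lay below the floor and 1 was not analysed. NID2, which encodes nidogen-2, was 5.26-fold higher in 786-VHL, and CCN2, which encodes connective tissue growth factor, was 2.21-fold lower. LAMA5, SPOCK1 and EFEMP1 differed by 1.5-fold to 2-fold, the first 2 higher in 786-VHL and the last lower, while FN1, SPARC, TNC and TGFBI were close to equal in both lines. LUM also passed 2-fold, but was below the floor in 786-O. The members at least 2-fold apart were thus 2 higher, against 1.54% of all 13291 measured genes, and 1 lower, against 2.18%, or 3 apart in all, against 3.72%. Among the 23 members above the floor on both arrays, 1 was at least 2-fold higher and 1 lower, against 1.41% and 1.94% of 12471 such genes. The median difference of the measured members was -0.03, against 0.05 over all measured genes, and 12 of the 26 (46.2%) were higher in 786-VHL and 14 lower, where 56.8% of all measured genes were higher. The plot of intensities by gene shows these values.

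**Figure D1:**
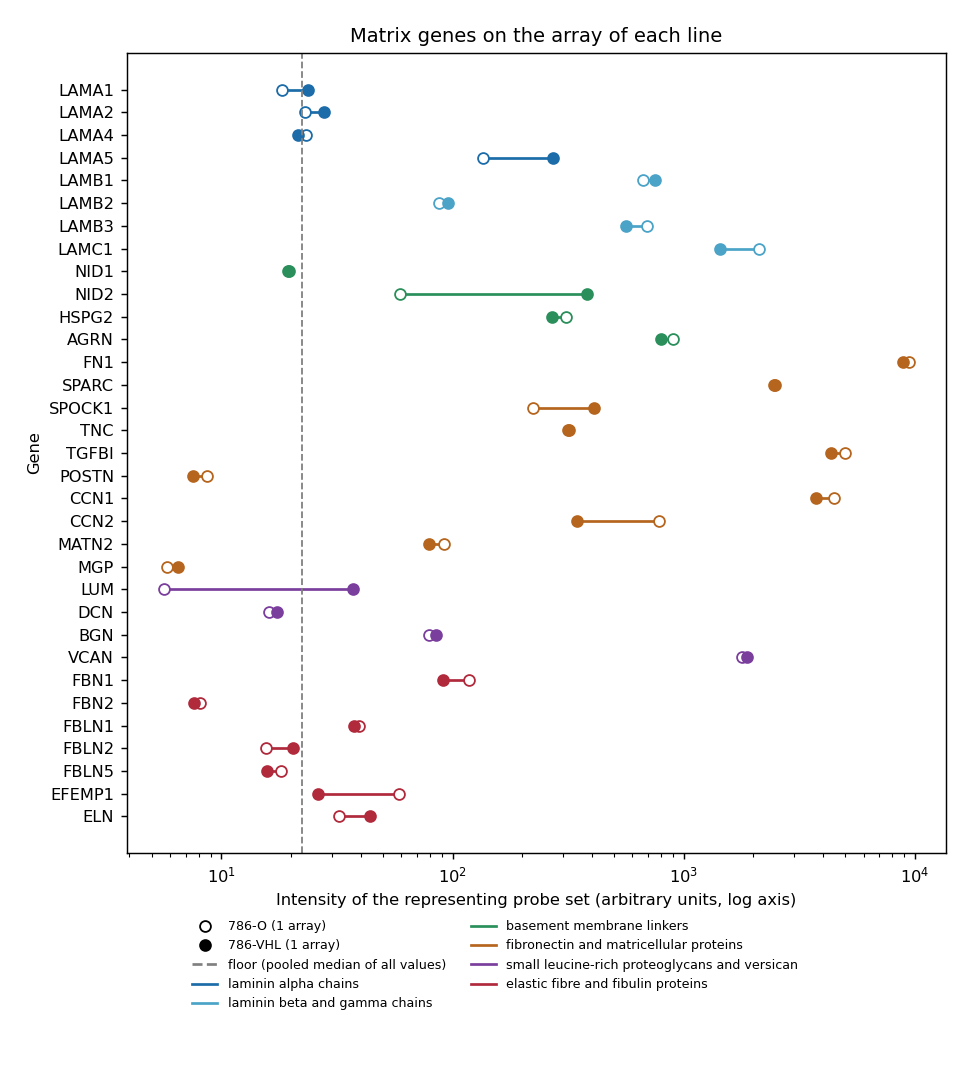
Intensity (arbitrary units, log axis) of the representing probe set of 33 matrix genes on the 786-O array (open circles) and the 786-VHL array (filled circles), with the floor of 22.3 dashed and colours for the gene group. The longest lines with both ends above the floor belong to NID2, from 59.5 to 381, and CCN2, from 785 to 346, and 7 genes lie wholly below the floor.

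Of the 6 members at least 1.5-fold apart, NID2, CCN2 and LAMA5 had a promoter entry in the RefSeq table used here, and the 250 bases before the start of each are given so that the genes with the clearest differences can be seen beside their sequence. Capitals mark matches, on either strand, to the HIF cores ACGTG and GCGTG, the TEAD motif GGAATG and the TATA box TATAAA.
NID2, GRCh38.p14, chr14:52069060-52069309, minus strand: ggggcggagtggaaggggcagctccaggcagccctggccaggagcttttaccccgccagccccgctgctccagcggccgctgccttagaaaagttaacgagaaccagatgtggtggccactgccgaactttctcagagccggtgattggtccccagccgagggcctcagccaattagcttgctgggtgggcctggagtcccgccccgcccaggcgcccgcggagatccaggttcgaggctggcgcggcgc
LAMA5, GRCh38.p14, chr20:62367313-62367562, minus strand: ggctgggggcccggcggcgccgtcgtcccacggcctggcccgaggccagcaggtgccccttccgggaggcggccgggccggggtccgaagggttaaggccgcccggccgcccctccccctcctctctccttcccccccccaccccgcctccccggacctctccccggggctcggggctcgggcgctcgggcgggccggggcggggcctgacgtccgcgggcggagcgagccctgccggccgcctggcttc
CCN2, GRCh38.p14, chr6:131951373-131951622, minus strand: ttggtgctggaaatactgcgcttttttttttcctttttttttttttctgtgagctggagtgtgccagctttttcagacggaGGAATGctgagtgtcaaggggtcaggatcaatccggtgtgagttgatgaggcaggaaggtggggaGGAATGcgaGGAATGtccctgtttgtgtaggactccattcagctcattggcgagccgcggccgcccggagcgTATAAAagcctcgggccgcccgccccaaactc
The CCN2 window held GGAATG at 169, 104 and 95 bases before the start and TATAAA at 32 bases before it, none of which overlap. GGAATG was present in 11.9% of 27305 promoter windows of this length. A cut of 3 or more matches, taken from the count in CCN2 itself, was met by 0.0952%. TATAAA was present in 11.1%. The NID2 and LAMA5 windows held no match to any of these letters. Their GC content was 68.0% and 82.8%, against 53.2% in CCN2. The median was 58.0% over all windows and 70% over the members with an entry. Over the 24 members with an entry, 4 windows (FBLN5, FBN1, FBN2 and LAMA2) held either HIF core, which 43.1% of all windows held, and 4 (CCN2, FBN1, LAMA2 and SPARC) held GGAATG. The pair of matches in FBN2 is a palindrome, ACGTG read on both strands with overlapping letters. These are matches of letters within the window and not binding sites.

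The laminin alpha chains carry the sites that cells bind, and LAMA3 was not analysed. The brightest of those analysed was LAMA5, the alpha chain of most mature epithelial basement membranes. Its probe set read 135 in 786-O and 273 in 786-VHL, 1.91-fold higher. A further probe set shared with the antisense gene LAMA5-AS1 read 62.6 and 75.2, a difference of 0.21, so the size was not seen on it. With a pseudocount of 1 LAMA5 passed 2-fold, with a difference of 1.01. The other analysed alpha chains lay at the floor. LAMA1, an alpha chain abundant in embryos, read 18.4 and 23.6, LAMA2, the muscle form, read 22.9 and 27.8, and LAMA4, the vascular form, read 23.2 and 21.5. The further probe sets of these 3 genes reached at most 25.3 on either array, so no difference among them could be told at this signal.

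The beta and gamma chains, which complete the trimer, were above the floor in both lines. LAMB1 read 669 and 754, a difference of 0.17, and 472 and 638 on its other probe set, a difference of 0.42. LAMB2 read 87.4 and 95.8, a difference of 0.11. LAMB3, the beta chain of epithelial laminin, read 691 in 786-O and 563 in 786-VHL, a difference of -0.29. LAMC1, the gamma chain shared by most laminins, read 2110 and 1435 on its representing probe set, a difference of -0.55, but 738 and 825 on the other, a difference of 0.16. Its 2 probe sets thus pointed in opposite directions, and the median over them was -0.20. The representing probe set passed 1.5-fold with quantile normalization, at -0.61, and with the intensity trend removed, at -0.66. Without these rescalings none of the 4 chains was at least 1.5-fold apart, which 12.8% of all measured genes were.

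Among the linkers, NID2 read 59.5 in 786-O and 381 in 786-VHL on its single probe set, a difference of 2.40. It was at least 2-fold higher with pseudocounts of 1 and 64, quantile normalization and the intensity trend removed, with differences from 1.85 to 2.66. The other alternative settings change the filter or the choice of probe set and could not move a gene with a single probe set. NID1, which encodes the other nidogen, lay below the floor on all 3 of its probe sets, whose highest readings were 19.6 and 19.4. NID2 was thus above the floor in both lines and NID1 in neither. Perlecan, the heparan sulfate proteoglycan HSPG2, read 311 and 268, with differences of -0.20 and -0.42 on its 2 probe sets. Agrin, which joins laminin to dystroglycan, read 901 and 802, a difference of -0.16. Its 4 probe sets ranged from -0.34 to 0.18, and the direction turned once probe sets with an _s_at, _x_at or _a_at ending, whose probes can match several transcripts, were left out. The 2 probe sets without such an ending gave 0.18 and -0.34, so that turn followed from which of them represented the gene.

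**Figure D2:**
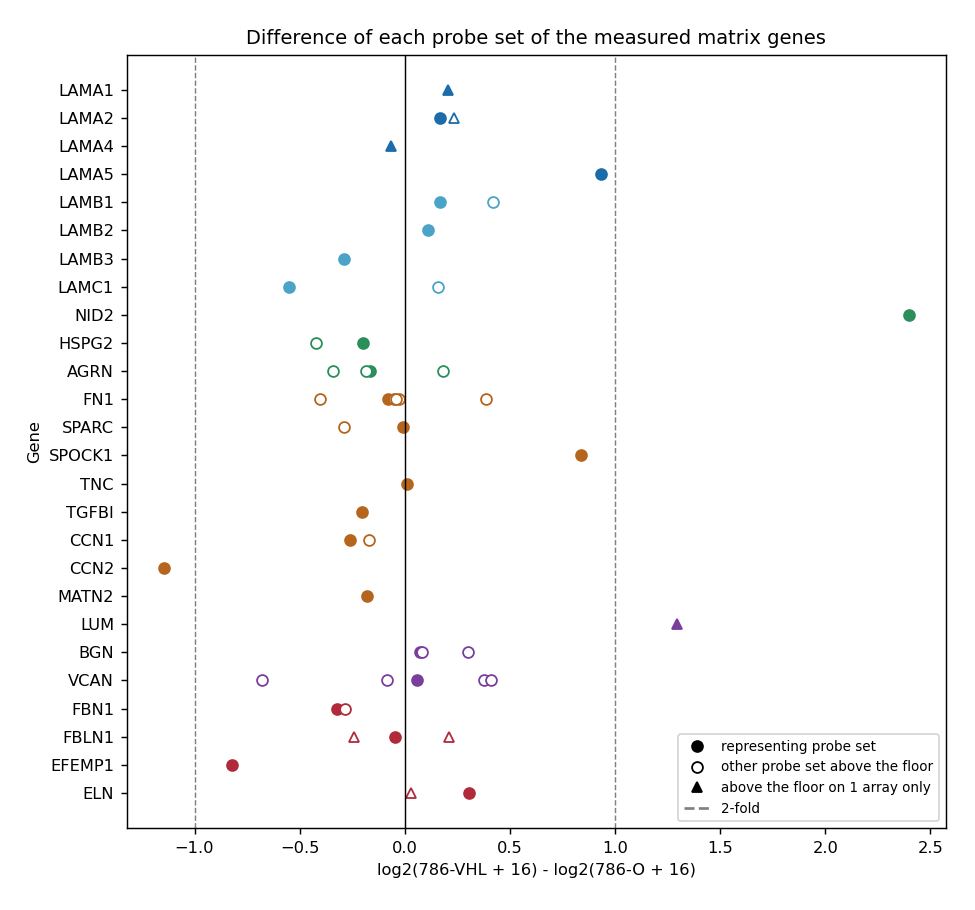
Difference between the lines, log2(786-VHL + 16) minus log2(786-O + 16), for each probe set above the floor of the 26 measured matrix genes, with the representing probe set filled and triangles for probe sets above the floor on 1 array only. NID2 at 2.40 and CCN2 at -1.15 lie outside the dashed 2-fold lines with both arrays above the floor, and the 5 VCAN probe sets spread from -0.68 to 0.41.

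FN1, which encodes fibronectin, was nearly equal in the 2 lines. Its 4 brightest probe sets read from 8760 to 9394 in 786-O and from 8511 to 8896 in 786-VHL, with differences from -0.08 to -0.03. A dimmer probe set read 1053 and 791, a difference of -0.41, and another read 54.5 and 76.0, a difference of 0.38. The 6 probe sets above the floor therefore did not share a direction. The last of them is the probe set without a suffix, and by it alone FN1 was higher in 786-VHL. Transcript level is what was measured, and fibronectin protein or its assembly was not.

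Of the matricellular genes, CCN2 read 785 in 786-O and 346 in 786-VHL on its single probe set, a difference of -1.15. It remained at least 2-fold lower with pseudocounts of 1 and 64, quantile normalization and the intensity trend removed, with differences from -1.19 to -1.05. As for NID2, the other settings could not move its value. CCN1, which encodes the related angiogenic protein CYR61, read 4457 and 3721 on 1 probe set and 3518 and 3127 on the other, with differences of -0.26 and -0.17. CCN1 thus differed by less than the SD between probe sets, and CCN2 alone of this pair, both textbook targets of YAP and TEAD, passed a size rule. CCN1 had no promoter entry, and a part of YAP or TEAD was not tested. SPOCK1, which encodes the proteoglycan testican-1, read 222 and 409.7, 1.79-fold higher in 786-VHL. SPARC, a collagen-binding protein in the same family, read 2474 and 2459, a difference of -0.01, and -0.29 on its other probe set.

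TNC, which encodes the anti-adhesive protein tenascin-C, read 315 and 318, a difference of 0.01 that turned to -0.01 and -0.04 with quantile normalization and with the intensity trend removed. TGFBI, an integrin-binding protein induced by TGF-beta, read 4985 and 4328, a difference of -0.20. MATN2, which encodes the filament-forming matrilin-2, read 91.5 and 78.9, a difference of -0.18. These 3 genes differed by less than the SD between probe sets of a gene. POSTN, which encodes the fibroblast protein periostin, and MGP, an inhibitor of calcification, lay below the floor, with highest readings of 8.63 and 7.56 for POSTN and 6.81 and 6.50 for MGP. The group as a whole had 8 measured members of 10, of which 2 were higher in 786-VHL and 6 lower, with a median of -0.13. Over all measured genes 56.8% were higher, with a median of 0.05, and so few members give no result about the group.

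The small leucine-rich proteoglycans, which coat collagen fibrils, were dim. LUM, which encodes lumican, read 5.64 in 786-O and 37.1 in 786-VHL on 1 probe set, so it was measured only through 786-VHL and had to differ. With 786-O set to the floor it was at least 1.39-fold higher, and its fitted difference moved from 2.52 with a pseudocount of 1 to 0.54 with 64. The other LUM probe set was below the floor in both lines, at 6.60 and 7.48. DCN, which encodes decorin, was below the floor on all 7 of its probe sets, whose highest readings were 16.5 and 17.3, and BGN, which encodes biglycan, read 79.5 and 84.4, with differences from 0.07 to 0.30 on 3 probe sets. Of 10 fibroblast and pericyte markers 4, namely ACTA2, COL1A1, RGS5 and THY1, were above the floor in both lines, 1 higher in 786-VHL and 3 lower. COL1A2, COL3A1, PDGFRA, PDGFRB, FAP and CSPG4 were below the floor in both lines. The summed intensity of the 10 was 415 in 786-O and 373 in 786-VHL, none was at 0, and their part in the LUM value was not tested.

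VCAN, which encodes the large hyaluronan-binding proteoglycan versican, was nearly equal on its representing probe set, at 1797 and 1871, but its 5 probe sets divided. A second read 1864 and 1759, a difference of -0.08. The next pair read 1350 and 1757, and 955 and 1274, with differences of 0.38 and 0.41. The dimmest read 591 in 786-O and 363 in 786-VHL, a difference of -0.68. Versican is made as splice forms, and which forms each probe set detects was not analysed. The sign of the representing probe set also turned, to -0.01 with quantile normalization and to -0.05 with the intensity trend removed.

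Of the elastic fibre and fibulin genes, EFEMP1, which encodes fibulin-3, read 58.4 in 786-O and 26.1 in 786-VHL, 1.77-fold lower. Its 2 other probe sets were below the floor, and its difference was -1.13 with a pseudocount of 1, past 2-fold, and -0.44 with 64, short of 1.5-fold. FBN1, which encodes the microfibril protein fibrillin-1, read 117 and 90.5, a difference of -0.32, and -0.29 on a second probe set. FBLN1 read 39.3 and 37.4, a difference of -0.05, and probe sets at the floor gave -0.24 and 0.21. ELN, which encodes elastin, read 32.4 and 43.8, a difference of 0.30, and 0.03 on a second probe set at the floor. FBN2, FBLN2 and FBLN5 were below the floor, with highest readings of 8.07 and 8.43, 15.5 and 20.5, and 18.1 and 15.8. Of the 4 measured members 3 were lower in 786-VHL, where 56.8% of all measured genes were higher. EFEMP1 alone was at least 1.5-fold apart, as were 12.8% of all measured genes. So few members give no result about the group.

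**Figure D3:**
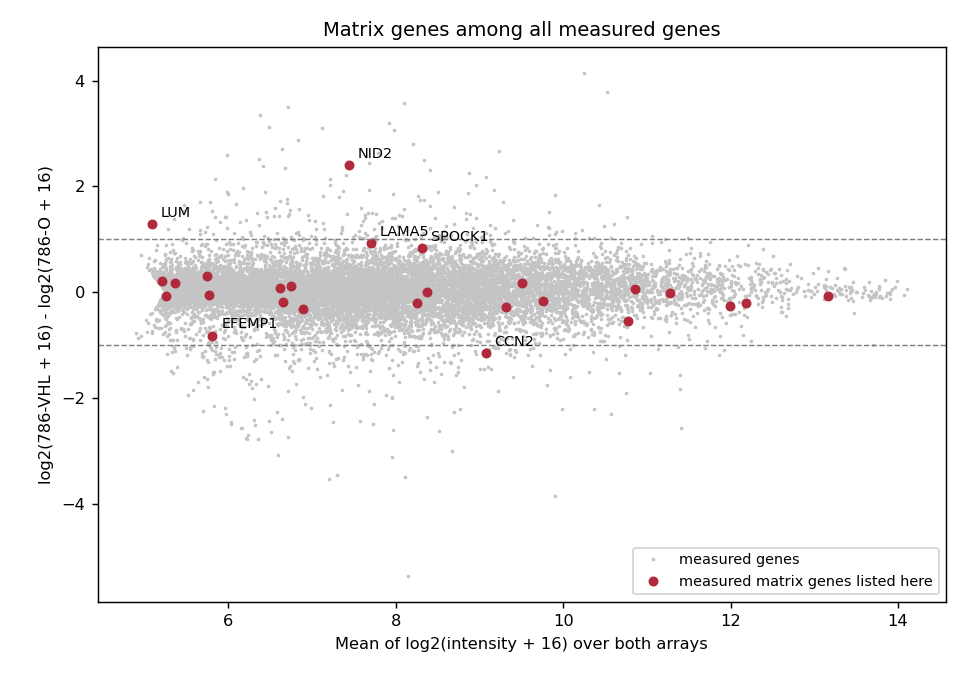
Difference between the lines against mean log2(intensity + 16) for all 13291 measured genes (grey) and the 26 measured matrix genes (red), with names for those at least 1.5-fold apart and dashed lines at 2-fold. NID2 and CCN2 lie outside the dashed lines in the middle of the intensity range, LUM at its dim end, and FN1 at the bright end lies near 0.

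Over the whole group, 4 members were at least 1.5-fold higher in 786-VHL, namely NID2, LUM, LAMA5 and SPOCK1, against 6.25% of all measured genes. The 2 at least 1.5-fold lower were CCN2 and EFEMP1, against 6.55%. The other 20 measured members were short of 1.5-fold on their representing probe set, though 1 VCAN probe set was past it, and LAMC1 passed it under the 2 rescalings given above. Of the 6 members past 1.5-fold, none had a second probe set above the floor that named the gene alone, so none of these differences was seen on more than 1 such probe set.

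Matrix is read by cells through integrins, syndecans and other receptors. Of 23 laminin and fibronectin receptor genes 20 were measured, 9 of them higher in 786-VHL and 10 lower, with a median of -0.14. By comparison 56.8% of all measured genes were higher. ITGB3, which pairs with ITGAV to bind vitronectin and fibronectin, read 303 and 726, 2.32-fold higher, with further probe sets above the floor between 0.45 and 1.10. ITGA4, which binds fibronectin and VCAM1, read 83.0 and 29.4, 2.18-fold lower, and its other probe sets, dim or below the floor, gave -0.63 to -0.52. The calls were thus 1 higher and 1 lower, against 1.54% and 2.18% of all measured genes. The laminin receptor BCAM, which binds the LAMA5 chain and was chosen after its values were seen, read 102 and 50.9, a difference of -0.82, with -0.51 on its other probe set. Also chosen after its values were seen, CD44 gave -0.91 on its brightest probe set. Its further probe sets above the floor ranged from -0.58 to 0.27, the last on a dim probe set of 26.1 and 34.7. ITGA3, ITGA6 and ITGB4, chosen likewise, gave -0.31, -0.34 and 0.25. The other ITGA6 probe set gave 0.24, so these receptor genes did not share a direction.

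Of 21 genes of matrix assembly and crosslinking 18 were measured. Of these 8 were higher and 10 lower, with a median of -0.02, where 56.8% of all measured genes were higher. LOX, which crosslinks elastin and collagen, read 74.0 in 786-O and 7.44 in 786-VHL on its brightest probe set, at least 2.35-fold lower with the latter at the floor. Its other probe sets read 47.6 and 8.49, at least 1.66-fold lower, and 22.6 and 8.80, at least 1.01-fold lower. LOXL1, a related enzyme needed for elastic fibres, read 541 and 224, 2.32-fold lower. The calls were 0 higher and 2 lower, against the same 1.54% and 2.18%. LOX was measured only through 786-O and so had to differ. Among genes of the list above the floor on both arrays, 0 were higher and 1 lower, against 1.41% and 1.94%.

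Of 48 other matrix glycoproteins and proteoglycans 24 were measured, 17 of them (70.8%) higher in 786-VHL and 6 lower, with a median of 0.10. By comparison 56.8% of all measured genes were higher, with a median of 0.05. EFEMP2, which encodes fibulin-4, a protein that brings LOX to elastin, read 487 in 786-O and 74.0 in 786-VHL, 5.59-fold lower, and 347 and 71.8 on its other probe set, 4.14-fold lower. This was the only gene of the list at least 2-fold lower, against 2.18% of all measured genes, and both probe sets carry a suffix. EGFLAM, which encodes pikachurin, a dystroglycan ligand, read 250.1 and 526, 2.04-fold higher, the only gene at least that much higher, against 1.54%.

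**Figure D4:**
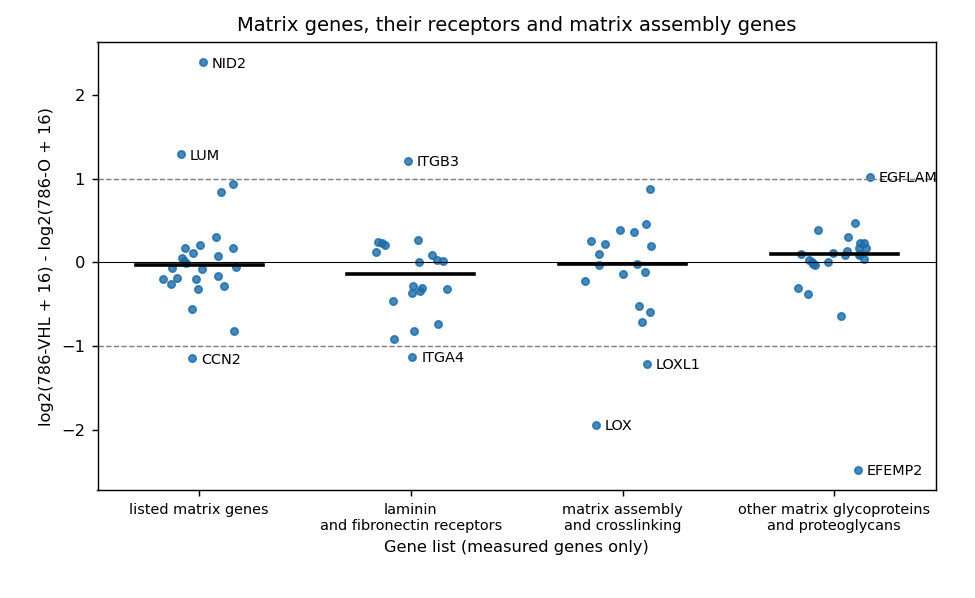
Difference between the lines for measured genes of 4 lists, 1 point per gene on its representing probe set, with a bar at the list median, names for genes at least 2-fold apart and dashed lines at 2-fold. The medians, -0.03, -0.14, -0.02 and 0.10 from left to right, lie near 0, and EFEMP2, LOX, LOXL1, ITGA4 and CCN2 lie below the lower line.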

How the data were processed

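Total RNA of 2 cell lines, extracted with Trizol per the labels' protocols, was measured on 1 Affymetrix array each. The authors deposited an intensity per probe set and array, not log-transformed as its range shows. The submitters' processing notes name R 2.10 and no other tool. How background was corrected, arrays were normalized and probes were summarised is not given in the sources used, and any of these steps could compress or shift differences.

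By the platform's annotation 41091 probe sets name 1 gene, 1801 several genes and 11721 none. Symbols were updated by Entrez gene number for 41037 of the first. No normalization was added. The members, gene lists and size rules were chosen with earlier results of these data known. Members past 1.5-fold on any probe set above the floor are described with every such probe set. Other list genes are named at 2-fold, and any given with values below it are said to be chosen after their values were seen. The fibroblast and pericyte markers are all named. Promoters came from RefSeq's GRCh38.p14, the first entry per gene. The calculation was tested on simulated data. Python 3.11.15, numpy 2.4.6, pandas 2.3.3 and matplotlib 3.10.9 were used.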

Additional observations from a re-analysis of the deposited data

How the results depend on the processing

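No paired analysis was possible because the design has 1 array for either line, and no replicate could be left out. Of 237 alternative values of the 26 measured members, 231 kept the sign, and 7 moved by more than the SD between probe sets. NID2 and CCN2 were at least 2-fold apart in each alternative run. With a single probe set each, only the pseudocounts and rescalings could move their values. For the other members too, runs that change only the filter repeat the main value. Members at least 2-fold higher (2) numbered 1 with a pseudocount of 64, the floor at the 75th percentile, no suffixed probe sets, or only genes above the floor on both arrays, an alternative chosen after seeing the data, and 4 at 1.5-fold. Members lower (1) numbered 2 with a pseudocount of 1 and at 1.5-fold. With that higher floor the members' median was -0.12, and it was 0.02 without suffixed probe sets and -0.09 with the intensity trend removed. All genes at least 2-fold apart (495) numbered 686 with a pseudocount of 1, 256 with a pseudocount of 64 and 1702 at 1.5-fold.

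For the other matrix genes, 0 were higher with a pseudocount of 64 or the intensity trend removed, and lower genes numbered 0 without suffixed probe sets and 2 at 1.5-fold. Their median was 0.026 without a filter and -0.30 with the higher floor. For receptors, 0 were lower with a pseudocount of 64, the higher floor or the median over probe sets, 4 were at 1.5-fold, and 0 were higher without suffixed probe sets. Their median was 0.00 without a filter, -0.31 with the higher floor, -0.013 over the median of probe sets and -0.29 above the floor on both arrays. For assembly genes, lower genes numbered 1 with a pseudocount of 64, the higher floor, no suffixed probe sets, or above the floor on both arrays, and 4 at 1.5-fold, where 1 was higher. Their median was 0.20 with the higher floor and -0.11 without suffixed probe sets. A higher pseudocount shrinks dim genes and a higher floor leaves fewer genes, and other causes were not tested. Picking the probe set by mean intensity, chosen after seeing the data, and quantile normalization moved none of these counts by over 1.5 times. Signal near the floor limits LAMA1, LAMA2, LAMA4 and LUM, and also EFEMP1, which read 26.1 in 786-VHL. ELN and FBLN1 were dim too.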

Other observations

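The genes beside the 6 members at least 1.5-fold apart were also read, as the 5 nearest measured genes on each side in the order of the GRCh38.p14 annotation, a choice made after the values were seen. The 10 neighbours of NID2 had a median difference of 0.09 and ranged from -0.53 to 0.59, with 8 higher in 786-VHL and none 2-fold apart. The neighbours of CCN2 had a median of 0.28, and 8 of 10 were higher in 786-VHL, where 56.8% of all measured genes were. The neighbours of LAMA5 ranged from -0.22 to 0.27, those of EFEMP1 from -0.32 to 0.45 and those of SPOCK1 from -0.62 to 0.22. The neighbours of LUM included KITLG, which encodes the ligand of the receptor KIT, at 1.12, the only gene of these sets at least 2-fold apart.

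The deposited intensities were not fully continuous. Of 54613 probe sets 2127 (3.89%) had the same value on both arrays, within 0.001. Among the 26016 above the floor on both arrays, 1601 (6.15%) differed between arrays by a nonzero multiple of 0.5 within the same tolerance, where 0.4% would if differences were spread evenly between multiples. Of the 88 member probe sets, 1 of FN1 read 14.4 on both arrays and 1 of FBLN1 read 21.2 on both, each below the floor, and an AGRN probe set read 637 and 559, exactly 78 apart. Which step made these values was not tested.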
